A study of Rattus norvegicus with 21 samples.

Results

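The genes described here code for enzymes that remove reactive oxygen species or supply the reductants used to do so. The list held 10 genes (Sod1, Sod2, Cat, Gpx1, Hmox1, Nqo1, Txnrd1, Gclc, Gclm and Prdx1), named by their function and not by their values. Of these, 9 had a probe set of their own on the array, among 13438 genes that did. Where a gene had several probe sets of its own, the one brightest on average over the 21 arrays stands for it. Prdx1, a peroxiredoxin that reduces hydrogen peroxide, had no probe set that carried its symbol alone, so no value is given for it.

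The cells were INS-1, derived from a rat insulinoma and much used in place of insulin-secreting beta cells. RNA was measured in 7 groups of 3 Affymetrix arrays: untransfected cells (INS1) without cytokines, and the stably transfected lines pcDNA (empty vector) and pCTSH#1 (a plasmid for the lysosomal protease cathepsin H), each at 0, 6 and 16 h. The cytokines, in both lines at 6 and 16 h, were 150 pg/ml recombinant mouse IL-1β together with 5 ng/ml recombinant rat IFNγ. The cathepsin H line was 1 clone, so what differs between it and pcDNA cannot be told apart from what differs between any pair of clones. No arrays of cells kept without cytokines to 6 or 16 h were analysed here, and a change from 0 h cannot be told apart from time in culture. Replicates carry numbers in the labels, which do not call them separate cultures, so p-values measure only the spread between these arrays.

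Superoxide, which leaks from the respiratory chain, is turned into hydrogen peroxide by superoxide dismutases, and the peroxide is then removed by catalase, glutathione peroxidases and peroxiredoxins. The last pair of enzyme families draws its electrons from glutathione and thioredoxin. Pancreatic beta cells are known for low levels of catalase and glutathione peroxidase. Many genes of glutathione and thioredoxin metabolism, as well as Hmox1 and Nqo1, are textbook targets of the transcription factor NRF2, which binds antioxidant response elements, while Sod2 is a textbook target of NF-kB.

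Promoter sequence was available for 9 of the 10 genes from RefSeq (rat build GRCr8), as windows of 300 bases from 250 before to 50 after the annotated start. Hmox1 was not among them, and Txnrd1 had 2 windows. The core of the antioxidant response element, TGACNNNGC on either strand, lay in windows of 4 of these 9 genes (Sod2, Gclm, Prdx1 and Txnrd1), and in 12.1% of all 33469 rat windows. A STAT site, TTCNNNGAA, which is its own reverse complement, lay in windows of Gclm and Txnrd1 and in 8.87% of all windows. The AP-1 site TGANTCA was found for Prdx1 alone among the 9, in 7.33% of all windows, and 1 of its matches shared bases with the antioxidant response element core. The NF-kB consensus (4.18% of all windows) and the ATF4 site TGATGCAA (0.795%) matched none of the members' windows. Such matches are letters in a window and not measured binding sites. The 5 stretches below show where the antioxidant response element cores and the STAT sites lie, since Sod2, Txnrd1 and Gclm are the genes whose values follow and Prdx1 shows the element of a gene the array did not measure. Each lies upstream of the start that defines its window. Those of Txnrd1 also lie inside the annotated span of the gene, downstream of the start of its other window. They are written 5′ to 3′ on the strand of the gene, with the match in capitals. The antioxidant response element cores appear as their reverse complement, which begins with GC.
Sod2, chr1:50050175-50050223, minus strand: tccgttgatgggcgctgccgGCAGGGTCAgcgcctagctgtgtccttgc
Gclm, chr2:213031943-213032005, plus strand, response element then STAT site: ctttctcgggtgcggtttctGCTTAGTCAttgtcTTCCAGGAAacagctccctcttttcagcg
Prdx1, chr5:135383751-135383799, plus strand: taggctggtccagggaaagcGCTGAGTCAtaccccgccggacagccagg
Txnrd1, chr7:22755954-22756002, minus strand, response element: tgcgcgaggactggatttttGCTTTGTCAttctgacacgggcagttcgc
Txnrd1, chr7:22756092-22756140, minus strand, STAT site: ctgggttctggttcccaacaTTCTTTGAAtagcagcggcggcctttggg

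The arrays gave log2 intensities normalized by the authors, and all levels below are on that log2 scale, where 1 unit is a doubling. Levels of different genes are not compared, since they come from different probes. The brightest nonspecific control of an array was taken as its background, which lay between 3.88 and 4.17. Of 8 measured beta-cell markers, 8 were above background on all 21 arrays, among them Ins1 at 13.49 to 13.78. The 3 acinar and duct markers were at background on every array. Of the 3 blood cell markers, Ptprc was above background on 1 array, Lyz2 on 20 and Cd68 on all 21. The summed level of these 3 was 6.27 to 6.81 at 16 h against 5.67 to 5.93 at 0 h. Of the fibroblast and endothelium markers, Col1a1 was above background on 2 arrays and Pecam1 on 3. The summed level of the beta-cell markers was 15.22 to 15.44 at 16 h against 15.62 to 15.73 at 0 h. The summed level of the 3 markers of alpha, delta and PP cells, of which Gcg was above background on all 21 arrays, was 7.63 to 9.11 at 0 h and 6.38 to 7.26 at 16 h. At 0 h it was 7.63 to 7.91 in untransfected cells and 8.51 to 9.11 in the transfected lines. The part of these shifts in the results at 16 h and between the lines was not tested. The transfected gene could not be checked here: the probe set of Ctsh read 3.48 to 5.08 and was above background on 7 of 21 arrays.

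Calls were made at an adjusted p below 0.05 in limma. In the empty vector line at 6 h with cytokines, 3 of the 9 measured genes were higher than at 0 h (Sod2, Hmox1 and Txnrd1). A further 2 were lower (Nqo1 and Cat). Over all 13438 genes the shares were 14.5% higher and 24.6% lower. Shares of all genes, here and below, include genes at background. At 16 h, 4 were higher (Hmox1, Sod2, Gclm and Gclc) and 2 lower (Nqo1 and Sod1), against 25.8% and 29.5% of all genes. From 6 to 16 h, 4 rose (Hmox1, Gclm, Gclc and Cat) and 2 fell (Txnrd1 and Nqo1), against 24.8% and 25.1%. At 6 h in pCTSH#1, 3 were higher (Sod2, Hmox1 and Txnrd1) and 2 lower (Nqo1 and Cat), against 13.0% and 21.3% of all genes. At 16 h in pCTSH#1, 5 were higher (Hmox1, Sod2, Gclm, Gclc and Txnrd1) and 1 lower (Nqo1), against 25.2% and 30.1%. From 6 to 16 h in pCTSH#1, 4 rose (Hmox1, Gclm, Gclc and Sod2) and 2 fell (Txnrd1 and Nqo1), against 24.0% and 25.2%. The comparisons within a line share arrays, and their counts are not independent. The median difference of the 9 genes at 6 h was 0.13 in pcDNA and 0.08 in pCTSH#1, against -0.06 over all genes in each. At 16 h it was -0.07 and 0.20, against 0.00 and -0.01 over all genes. The members moved at different times and in opposite directions, so the median describes none of them.

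**Figure D1:**
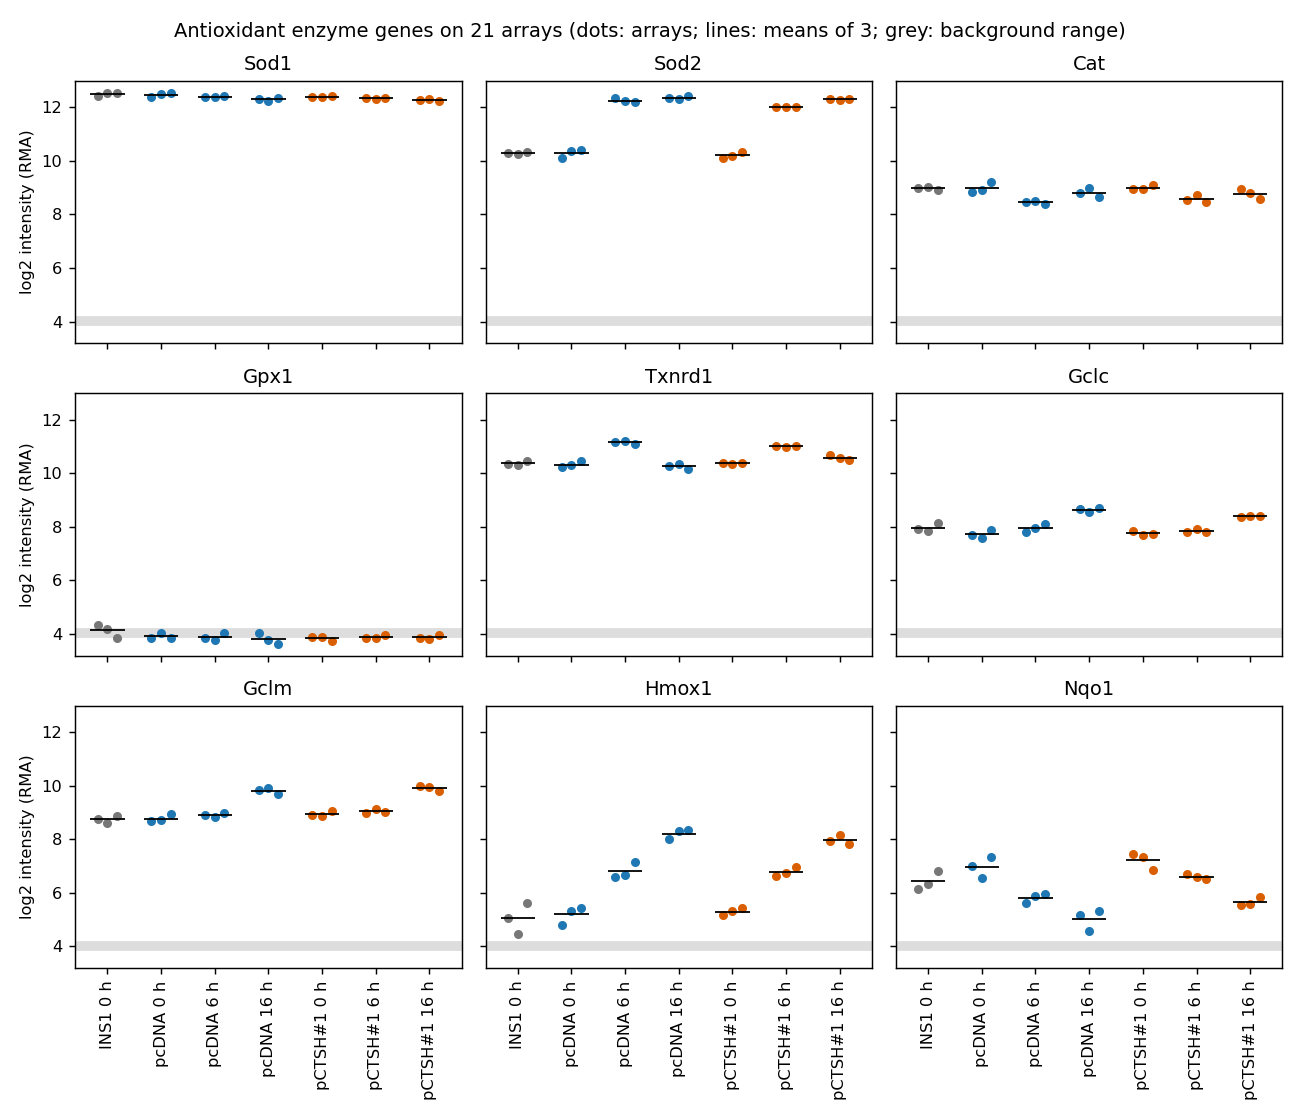
Log2 intensity of the 9 measured genes on each of the 21 arrays by group, with dots for arrays, black lines for means of 3 and a grey band for the range of background. Sod2 and Hmox1 rise with cytokines in both lines, Nqo1 falls, Gclm and Gclc rise at 16 h, Txnrd1 is highest at 6 h, Sod1 spans 0.22 between group means, and Gpx1 lies at background.

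**Figure D2:**
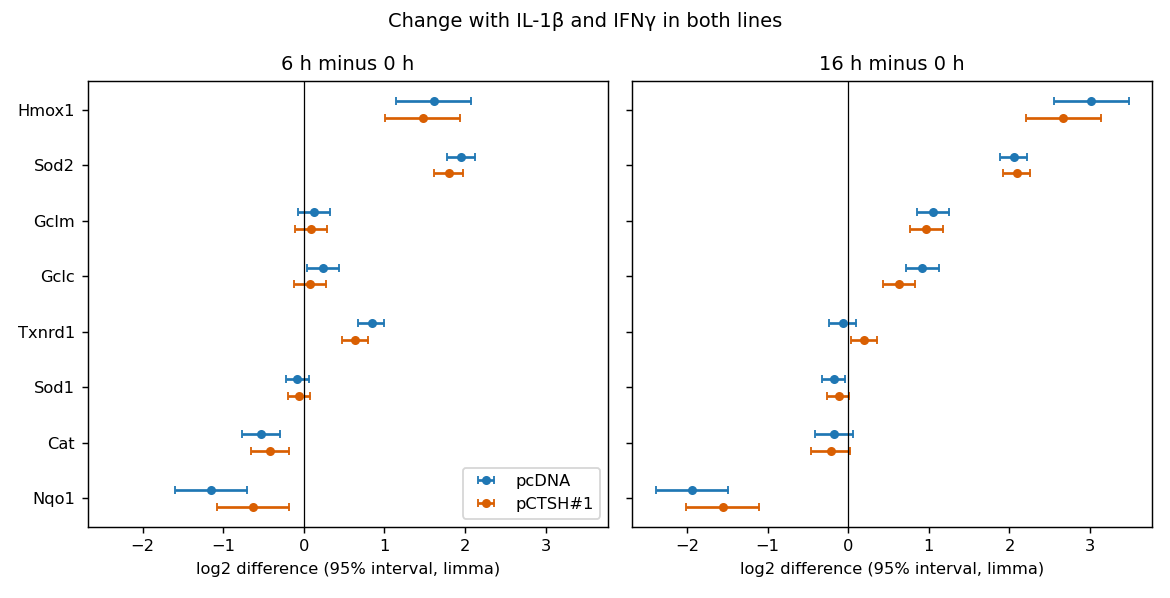
Change from 0 h at 6 h and at 16 h with cytokines in pcDNA and pCTSH#1 for the 8 genes above background on all arrays, as log2 differences with 95% intervals from limma. Hmox1 has the highest difference at 16 h (3.01 and 2.66) and Nqo1 the lowest (-1.94 and -1.56).

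Sod2 (Entrez 24787, chr1:50043323-50050168 in GRCr8) codes for the manganese superoxide dismutase of the mitochondrial matrix. In pcDNA its level was 10.12, 10.36 and 10.42 at 0 h, 12.33, 12.23 and 12.18 at 6 h, and 12.36, 12.29 and 12.40 at 16 h. All cytokine-treated arrays were far above all untreated ones, and the arrays at 6 and 16 h overlapped. The pCTSH#1 arrays read 10.10, 10.16 and 10.33 at 0 h, 12.00, 12.00 and 11.99 at 6 h, and 12.30, 12.28 and 12.30 at 16 h, with no overlap between any of the 3 times. Untransfected cells read 10.28, 10.27 and 10.33, within the range of the untreated pcDNA arrays. The rise at 6 h was 1.95 ± 0.08 (SE) in pcDNA, or 3.85-fold (adjusted p = 2.07e-13, limma), and 1.80 ± 0.08 in pCTSH#1, or 3.47-fold (adjusted p = 8.99e-13). At 16 h it was 4.14-fold and 4.27-fold above 0 h.

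What Sod2 did after 6 h depended on the probe set. By the brighter one it rose by a further 0.30 in pCTSH#1 (adjusted p = 0.00584, limma), while the difference of 0.10 in pcDNA did not pass (adjusted p = 0.353). A second, dimmer probe set rose more at 6 h, by 2.94 ± 0.11 in pcDNA and 2.75 ± 0.11 in pCTSH#1. It then fell from 6 to 16 h by 1.16 in pcDNA (adjusted p = 3.91e-08) and by 0.77 in pCTSH#1 (adjusted p = 9.90e-06). On that probe set the pcDNA arrays read 8.93, 8.92 and 8.79 at 0 h, 11.83, 11.73 and 11.91 at 6 h, and 10.59, 10.47 and 10.93 at 16 h. Both probe sets were higher with cytokines than without at both times, and they differed in direction between 6 and 16 h.

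**Figure D3:**
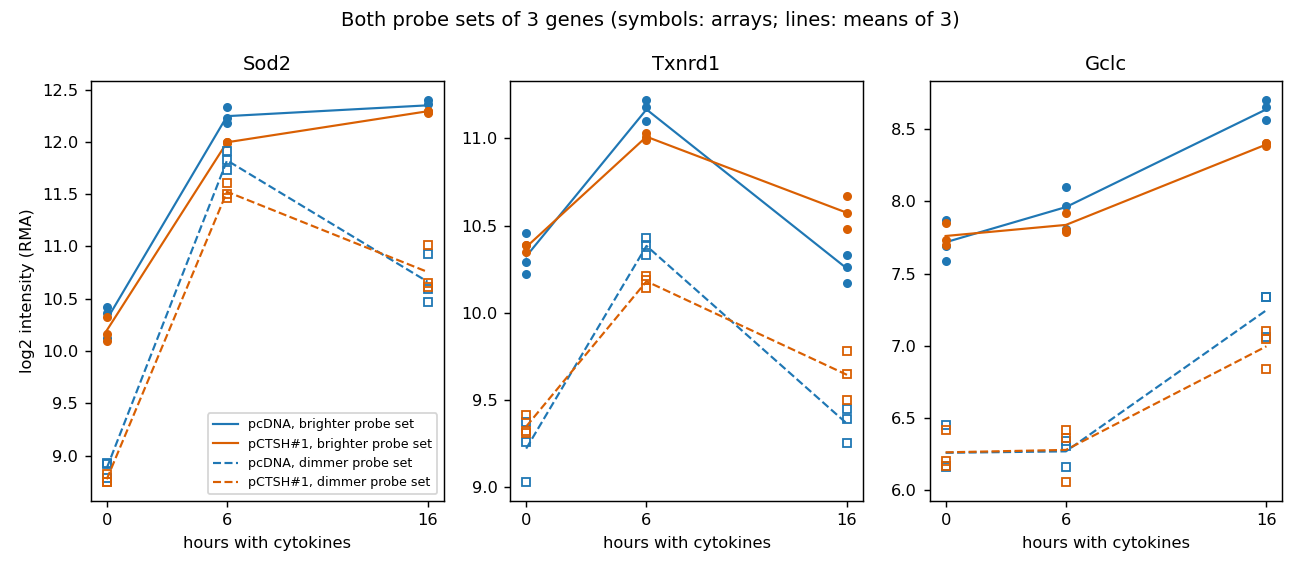
Log2 intensity at 0, 6 and 16 h of both probe sets of Sod2, Txnrd1 and Gclc in pcDNA and pCTSH#1, with symbols for arrays and lines joining means of 3. For Sod2 the brighter probe set stays high at 16 h (12.35 in pcDNA) and the dimmer one falls back from 6 h, whereas both probe sets of Txnrd1 peak at 6 h and both of Gclc are highest at 16 h.

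Sod1 (Entrez 24786, chr11:42942742-42948399) codes for the copper-zinc superoxide dismutase of the cytosol. Its 21 arrays lay between 12.23 and 12.53, the narrowest spread among the genes above background. In pcDNA it read 12.39, 12.50 and 12.52 at 0 h and 12.29, 12.23 and 12.34 at 16 h. The difference of -0.18 ± 0.07 passed the test (adjusted p = 0.0282, limma). It did not pass with arrays centred on their medians (-0.09, adjusted p = 0.374), after cyclic loess (-0.05, adjusted p = 0.618), in a fit on the compared arrays alone (adjusted p = 0.151), or without any one of 4 arrays (adjusted p 0.0600 to 0.104: replicates 2 and 3 at 0 h, 1 and 2 at 16 h). In pCTSH#1 the difference at 16 h was -0.12 (adjusted p = 0.139). It passed with trend and robust settings of eBayes (adjusted p = 0.0127) and among the brighter 50% of probe sets (adjusted p = 0.048).

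Cat (Entrez 24248, chr3:110297340-110329526) codes for catalase, the peroxisomal enzyme that splits hydrogen peroxide. In pcDNA it read 8.85, 8.90 and 9.20 at 0 h, 8.45, 8.51 and 8.40 at 6 h, and 8.78, 8.99 and 8.64 at 16 h. The arrays at 6 h lay below all others of the line, and those at 0 and 16 h overlapped. In pCTSH#1 the values were 8.96, 8.94 and 9.09 at 0 h, 8.54, 8.74 and 8.46 at 6 h, and 8.95, 8.79 and 8.59 at 16 h. At 6 h Cat had fallen by 0.53 ± 0.11 in pcDNA (adjusted p = 9.37e-04, limma) and by 0.42 ± 0.11 in pCTSH#1 (adjusted p = 0.00809). At 16 h the differences from 0 h were -0.18 (adjusted p = 0.227) and -0.22 (adjusted p = 0.126). The latter passed without replicate 1 of pCTSH#1 at 16 h (-0.31, adjusted p = 0.0464). The gain of 0.35 from 6 to 16 h in pcDNA (adjusted p = 0.0149) did not pass without replicate 2 at 16 h (0.26, adjusted p = 0.0983) or without replicate 3 at 6 h (0.33, adjusted p = 0.0522).

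Gpx1 (Entrez 24404, chr8:117905462-117906588) codes for the cytosolic glutathione peroxidase. Its only probe set was above background on 3 of 21 arrays and its group means lay between 3.81 and 4.13. No fold is given, and a probe set at background says nothing about how much of the transcript the cells held.

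Txnrd1 (Entrez 58819, chr7:22717620-22802553) codes for the cytosolic thioredoxin reductase, which uses NADPH to reduce thioredoxin. In pcDNA it read 10.22, 10.29 and 10.46 at 0 h, 11.18, 11.22 and 11.10 at 6 h, and 10.26, 10.33 and 10.17 at 16 h. The 6 h arrays stood above all others, and the arrays at 16 h overlapped those at 0 h. In pCTSH#1 it read 10.39, 10.35 and 10.39 at 0 h, 11.01, 10.99 and 11.03 at 6 h, and 10.67, 10.57 and 10.48 at 16 h. Here the 3 times did not overlap, with 16 h between the others. The rise at 6 h was 1.79-fold in pcDNA (0.84 ± 0.08, adjusted p = 4.99e-08, limma) and 1.55-fold in pCTSH#1 (0.64 ± 0.08, adjusted p = 2.76e-06). From 6 to 16 h it fell by 0.91 and 0.44 (adjusted p = 9.11e-09 and 1.13e-04).

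At 16 h Txnrd1 stood 0.07 below its 0 h level in pcDNA (adjusted p = 0.517, limma) and 0.20 above it in pCTSH#1 (adjusted p = 0.0468). The latter call ended without any one of 5 of the 6 arrays compared (adjusted p 0.0795 to 0.187; all but replicate 3 at 16 h), with a replicate block (adjusted p = 0.0569), and in a fit on only the arrays compared (adjusted p = 0.12). The second probe set of Txnrd1 showed the same course. It rose by 1.17 and 0.83 at 6 h, and at 16 h differed from 0 h by 0.14 in pcDNA (adjusted p = 0.225) and by 0.30 in pCTSH#1 (adjusted p = 0.0100). That call ended without replicate 1 of pCTSH#1 at 16 h (adjusted p = 0.0651), the array that also gave the highest p for the first probe set.

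Gclc (Entrez 25283, chr8:87510251-87548896) and Gclm (Entrez 29739, chr2:213032135-213052192) code for the catalytic and the modifier subunit of glutamate-cysteine ligase, which carries out the rate-limiting step of glutathione synthesis. Both were late. In pcDNA, Gclm read 8.68, 8.70 and 8.93 at 0 h, 8.89, 8.83 and 8.97 at 6 h, and 9.85, 9.92 and 9.68 at 16 h. The arrays of pCTSH#1 gave 8.91, 8.87 and 9.07, then 8.97, 9.12 and 9.03, and then 9.99, 9.96 and 9.81. The arrays at 0 and 6 h overlapped in both lines, and those at 16 h stood apart above them. The rise at 16 h was 2.07-fold in pcDNA (1.05 ± 0.10, adjusted p = 1.13e-08, limma) and 1.96-fold in pCTSH#1 (0.97 ± 0.10, adjusted p = 3.60e-08).

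Gclc in pcDNA read 7.69, 7.59 and 7.87 at 0 h, 7.81, 7.97 and 8.10 at 6 h, and 8.65, 8.56 and 8.70 at 16 h. In pCTSH#1 it read 7.85, 7.70 and 7.73, then 7.80, 7.92 and 7.79, and then 8.38, 8.40 and 8.40. At 16 h it was 1.89-fold higher than at 0 h in pcDNA (0.92 ± 0.10, adjusted p = 7.57e-08, limma) and 1.55-fold higher in pCTSH#1 (0.63 ± 0.10, adjusted p = 1.12e-05). The difference of 0.24 at 6 h in pcDNA did not pass (adjusted p = 0.0617), although it did after cyclic loess (0.36, adjusted p = 0.00708) and with a replicate block (0.24, adjusted p = 0.0481). It passed as well with arrays centred on their medians (adjusted p = 0.0451), among the brighter 50% of probe sets (adjusted p = 0.0291) and with array weights (adjusted p = 0.0339). It did not with trend and robust settings of eBayes, the mean of the gene's probe sets, or a fit on only the arrays compared. It also passed without replicate 1 at 6 h (adjusted p = 0.0276) or replicate 3 at 0 h (adjusted p = 0.0234). The second probe set of Gclc showed 0.01 at 6 h (adjusted p = 0.973) and 0.99 at 16 h (adjusted p = 8.13e-07) in pcDNA.

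Hmox1 (Entrez 24451, chr19:13452365-13479823) codes for haem oxygenase 1, the inducible enzyme that breaks haem down to biliverdin, iron and carbon monoxide. Its level in pcDNA was 4.82, 5.33 and 5.45 at 0 h, 6.60, 6.66 and 7.17 at 6 h, and 8.0, 8.30 and 8.34 at 16 h. In pCTSH#1 it was 5.16, 5.32 and 5.43, then 6.64, 6.73 and 6.97, and then 7.93, 8.16 and 7.82. The 3 times did not overlap in either line. Hmox1 rose 3.05-fold by 6 h and 8.08-fold by 16 h in pcDNA (1.61 ± 0.22 and 3.01 ± 0.22, adjusted p = 8.51e-06 and 4.88e-10, limma). In pCTSH#1 it rose 2.78-fold and 6.34-fold (adjusted p = 3.02e-05 and 3.14e-09). From 6 to 16 h it rose further, by 1.40 in pcDNA and 1.19 in pCTSH#1 (adjusted p = 2.49e-05 and 1.66e-04).

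Nqo1 (Entrez 24314, chr19:52205374-52220267) codes for a quinone reductase of the cytosol and is, with Hmox1, among the genes most often used to read NRF2 activity. It fell where Hmox1 rose. In pcDNA it read 7.01, 6.55 and 7.35 at 0 h, 5.64, 5.88 and 5.95 at 6 h, and 5.19, 4.58 and 5.34 at 16 h. Nqo1 in pCTSH#1 read 7.46, 7.32 and 6.86, then 6.69, 6.58 and 6.50, and then 5.53, 5.58 and 5.85. The 3 times did not overlap in either line. At 16 h the level was 3.83-fold lower than at 0 h in pcDNA (-1.94 ± 0.21, adjusted p = 1.95e-07, limma) and 2.95-fold lower in pCTSH#1 (-1.56 ± 0.21, adjusted p = 3.59e-06). At 6 h it had fallen by 1.15 in pcDNA (adjusted p = 2.73e-04) and by 0.63 in pCTSH#1 (adjusted p = 0.0358). The latter call ended without any one of 5 of the 6 arrays compared (adjusted p 0.0550 to 0.157; all but replicate 3 at 0 h) and after cyclic loess (-0.50, adjusted p = 0.103).

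Ordered by level, the groups fell into few steps. For Sod2 the 3 untreated groups (means 10.20 to 10.30) overlapped with their neighbours, and the step to pCTSH#1 at 6 h (11.99) was 1.69. For Hmox1 the order was untreated (5.05 to 5.31), 6 h (6.78 and 6.81) and 16 h (7.97 and 8.22), and within each of these steps the lines overlapped. For Gclm and Gclc the groups at 16 h stood above all the others. Neighbouring groups of Cat all overlapped along its order from pcDNA at 6 h (8.45) to untreated pCTSH#1 (8.99). The order of Nqo1 ran from pcDNA at 16 h (5.04) over pCTSH#1 at 16 h (5.65) and pcDNA at 6 h (5.82) to untransfected cells (6.43), pCTSH#1 at 6 h (6.59), untreated pcDNA (6.97) and untreated pCTSH#1 (7.21).

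Between the lines, 1 member was called at any time. Without cytokines none of the 9 differed between pCTSH#1 and pcDNA (limma), where 2.56% of all genes did. At an unadjusted p below 0.05 there were 0 members and 11.6% of all genes. At 6 h none passed either, against 3.99% of all genes, and at an unadjusted p below 0.05 there were 2 members and 14.6% of all genes. At 16 h Txnrd1 was higher in pCTSH#1, against 5.28% of all genes called. The numbers at an unadjusted p below 0.05 were then 3 of the 9 members and 2417 of all 13438 genes. Txnrd1 at 16 h was 1.25-fold higher in pCTSH#1, with 10.67, 10.57 and 10.48 against 10.26, 10.33 and 10.17 (0.32 ± 0.08, adjusted p = 0.0273). That call ended without replicate 1 or 3 of pcDNA at 16 h (adjusted p = 0.0727 and 0.0858), without replicate 1 or 2 of pCTSH#1 at 16 h (adjusted p = 0.112 and 0.0711), and in a fit on the 16 h arrays alone (adjusted p = 0.257). Its second probe set gave 0.28 (adjusted p = 0.0967).

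Nqo1 was next to the threshold. At 6 h every pCTSH#1 array (6.50 to 6.69) lay above every pcDNA array (5.64 to 5.95), with a difference of 0.77 and a 95% interval of 0.32 to 1.22 (adjusted p = 0.0653, limma). At 16 h the ranges were 5.53 to 5.85 and 4.58 to 5.34, and the difference was 0.62 (interval 0.17 to 1.07, adjusted p = 0.135). At 0 h the lines overlapped, and the difference was 0.24 (interval -0.21 to 0.69, adjusted p = 0.829). Sod2 at 6 h was 0.25 lower in pCTSH#1, also without overlap (interval -0.42 to -0.08, adjusted p = 0.133). Several alternative settings called Nqo1, Sod2 or both at 6 h.

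**Figure D4:**
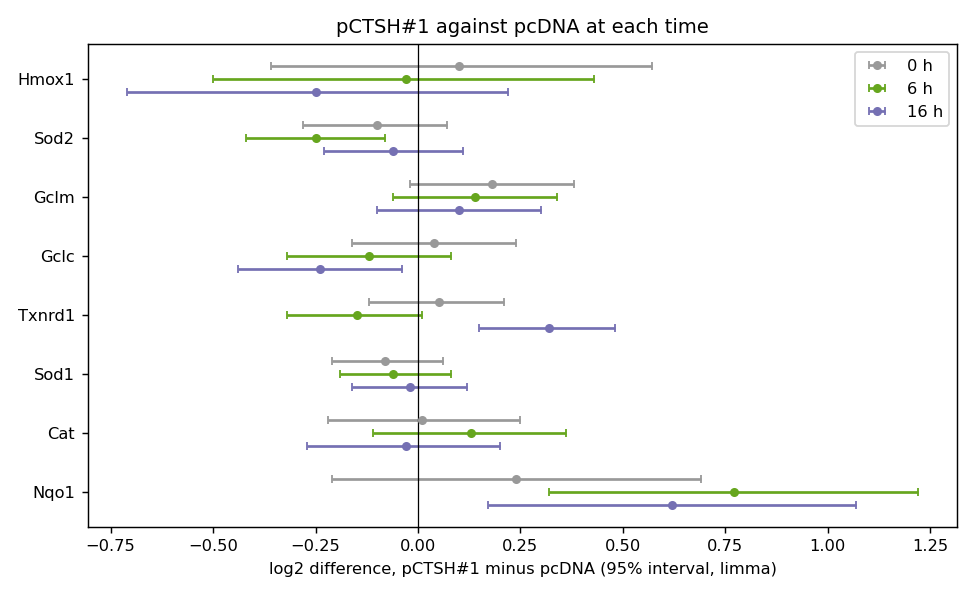
Log2 differences between pCTSH#1 and pcDNA at 0, 6 and 16 h for the 8 genes above background on all arrays, with 95% intervals from limma that are not adjusted for the number of genes. The intervals that leave out 0 are above it for Nqo1 at 6 h (0.32 to 1.22) and 16 h (0.17 to 1.07) and Txnrd1 at 16 h (0.15 to 0.48), and below it for Sod2 at 6 h (-0.42 to -0.08) and Gclc at 16 h (-0.44 to -0.04); after adjustment Txnrd1 at 16 h passed.

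Whether the response to cytokines itself differed between the lines was tested as the difference of the differences. None of the 9 members passed at 6 h (limma), where 0.119% of all genes did, or at 16 h, where 0.275% did. At an unadjusted p below 0.05 there were 0 members and 6.2% of all genes at 6 h, and 2 members and 8.56% at 16 h. For Hmox1 the intervals were -0.79 to 0.52 at 6 h and -1.01 to 0.31 at 16 h, and for Nqo1 -0.11 to 1.16 and -0.26 to 1.01. For Sod2 they were narrower, -0.39 to 0.09 and -0.20 to 0.29. For Txnrd1 at 16 h the difference of responses was 0.27 (interval 0.04 to 0.50, adjusted p = 0.543).

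Against untransfected cells without cytokines, none of the members passed in pCTSH#1 (limma), where 3.45% of all genes did. At an unadjusted p below 0.05 there were 4 members and 13.4% of all genes. The 4 include Gpx1 (3.85 against 4.13), which was at background in pCTSH#1 and is not read as a change. Nqo1 came nearest, with 7.46, 7.32 and 6.86 in pCTSH#1 against 6.15, 6.32 and 6.81 in INS1, a difference of 0.79 (interval 0.34 to 1.24, adjusted p = 0.0601). It passed without replicate 3 of INS1 (0.98, adjusted p = 0.0243) or without replicate 3 of pCTSH#1 (0.96, adjusted p = 0.0318). Between pcDNA and untransfected cells none passed either, and 0.0% of all genes did. At an unadjusted p below 0.05 there were 2 members and 595 genes (4.43%). Nqo1 was 0.55 higher in pcDNA (interval 0.09 to 1.00, adjusted p = 0.969).

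Other genes of antioxidant defence, together with 8 oxidant sources, were taken from a list of 79 genes by role. Of these, 72 had a probe set of their own. In pcDNA, 13 were higher and 23 lower at 6 h (limma), and 19 higher and 29 lower at 16 h. In pCTSH#1, 10 were higher and 20 lower at 6 h, and 21 higher and 32 lower at 16 h. At 6 h this was 18.1% higher and 31.9% lower in pcDNA, against 14.5% and 24.6% of all genes, and 13.9% and 27.8% in pCTSH#1, against 13.0% and 21.3%. At 16 h it was 26.4% higher and 40.3% lower in pcDNA, against 25.8% and 29.5%, and 29.2% and 44.4% in pCTSH#1, against 25.2% and 30.1%. All genes include those at background. Of the brighter 50% of probe sets (15521), fitted apart, 3300 were higher and 5565 lower at 6 h in pcDNA, and 3027 and 4985 in pCTSH#1. The numbers at 16 h were 5475 and 6644 in pcDNA, and 5331 and 6745 in pCTSH#1. The median difference of the list was -0.08 in pcDNA and -0.11 in pCTSH#1 at 6 h, against -0.06 over all genes in each. At 16 h it was -0.08 in each line, against 0.00 and -0.01 over all genes. With arrays centred on their medians, the median of the list at 16 h was 0.02 in pcDNA and 0.01 in pCTSH#1. The same centring gave 0.095 and 0.083 over all probe sets, so the list still lay below them. Among the counts of all 72, 4 calls (Gpx2, Cybb, Ncf1 and Xdh, each in 1 comparison with 0 h) have both groups at background. From 6 to 16 h, 18 rose and 25 fell in pcDNA, and 22 rose and 23 fell in pCTSH#1. In pcDNA this was 25.0% and 34.7%, against 24.8% and 25.1% of all genes. In pCTSH#1 it was 30.6% and 31.9%, against 24.0% and 25.2%. Of these calls, Gstp1 and Xdh in pcDNA and Gpx2 and Gpx8 in pCTSH#1 have both groups at background. The split from 6 to 16 h moved with the centring of the arrays: with arrays centred on their medians it was 25 rising and 16 falling in pCTSH#1. Over all probe sets the split moved too, from 6027 rising and 6788 falling to 7769 and 5641. Some genes of the list lie in families with closely related members (glutathione transferases, peroxiredoxins), whose probe sets may share signal.

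**Figure D5:**
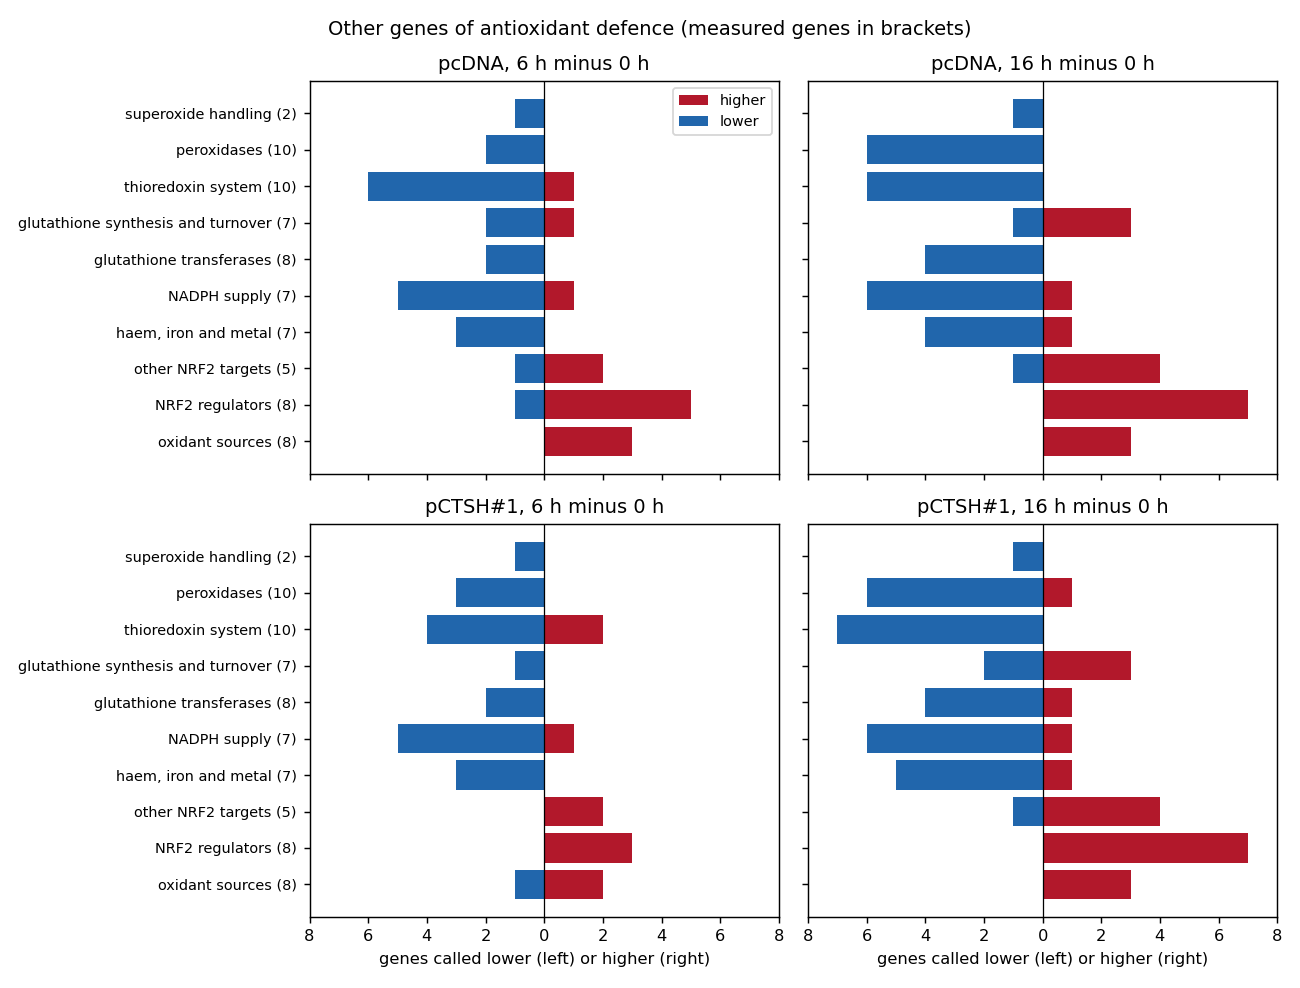
Number of genes called higher (right, red) and lower (left, blue) by limma in each role of the list at 6 h and 16 h against 0 h in pcDNA and pCTSH#1, with the number measured in brackets. At 16 h, 7 of 8 NRF2 regulators are called higher in each line, and 6 of 10 peroxidases and 6 of 7 genes of NADPH supply lower, whereas at 6 h 2 and 3 of 10 peroxidases are called lower.

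NRF2 regulators were the NRF family factors, their small MAF partners, their inhibitors and Sqstm1. Of these, 7 of 8 were called higher at 16 h in each line and none lower, against 25.8% and 25.2% of all genes higher. The 7 included Sqstm1 and the inhibitor Keap1 in each line. At 6 h, 5 of 8 were higher and 1 (Nfe2l2) lower in pcDNA, and 3 of 8 higher in pCTSH#1, against 14.5% and 13.0% of all genes higher. Maff, which codes for a small MAF protein, had the largest differences. Maff rose at least 14.6-fold at 6 h and at least 25.9-fold at 16 h in pcDNA, where it was at background without cytokines, and by 3.50 and 4.59 in pCTSH#1. Mafk, of the same family, rose by 1.79 and 2.02 in pcDNA and by 1.42 and 1.91 in pCTSH#1. Nfe2l1, a factor related to NRF2, rose by 2.11 at 16 h in pCTSH#1. It was also called higher in pcDNA, with means of 6.33 at 0 h and 8.25 at 16 h. Nfe2l2 itself, the gene for NRF2, which is named here after its values were seen, had fallen by 0.50 at 6 h in pcDNA (adjusted p = 2.07e-04, limma) and was 0.47 above 0 h at 16 h (adjusted p = 1.86e-04). In pCTSH#1 the differences were -0.20 (adjusted p = 0.123) and 0.43 (adjusted p = 5.10e-04). Of 5 measured genes listed as other NRF2 targets, 4 were higher at 16 h in each line (Abcc1, Osgin1, Ephx1 and Nqo2). The remaining 1, Abcc4, was lower in each line. Of all genes, 25.8% were higher and 29.5% lower in pcDNA, and 25.2% and 30.1% in pCTSH#1. At 6 h, 2 of 5 were higher in each line (Abcc1 and Nqo2), and Ephx1 was lower in pcDNA. Nqo2 was at background without cytokines.

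In glutathione synthesis and turnover, 3 of 7 genes were higher at 16 h in each line (Chac1, Slc3a2 and Slc7a11), against 25.8% and 25.2% of all genes. Gsr, glutathione reductase, was lower in both lines (-0.99 and -0.75), and Chac2 was lower in pCTSH#1 (-0.34). Chac1 codes for an enzyme that degrades glutathione, and Slc7a11 and Slc3a2 for the subunits of the cystine importer. Chac1 rose by 5.37 ± 0.13 at 16 h in pcDNA and 5.29 ± 0.13 in pCTSH#1. Slc7a11 rose by 1.99 in pcDNA and 2.13 in pCTSH#1 at 16 h. Slc3a2 rose by 2.07 in pcDNA, and in pCTSH#1 from a mean of 9.87 to 11.83. At 6 h Chac1 separated the lines. In pcDNA it read 5.35, 5.42 and 5.35 at 0 h and 7.95, 7.93 and 8.23 at 6 h, while in pCTSH#1 it read 5.17, 5.51 and 5.67 at 0 h and 5.48, 5.40 and 5.72 at 6 h. The arrays of pCTSH#1 overlapped between these times, and those of pcDNA did not. The difference of responses was -2.57 ± 0.18 (adjusted p = 4.55e-07, limma). At 16 h both lines were level, at 10.75 and 10.74.

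Genes that remove peroxides or feed the reducing systems were mostly called lower at 16 h. Of all genes, which include those at background, 29.5% were lower in pcDNA and 30.1% in pCTSH#1 at that time. Among the brighter 50% of probe sets, 6644 of 15521 were lower in pcDNA and 6745 in pCTSH#1. Of 10 peroxidases, 6 were lower in each line. The call of 1, Gpx2, as higher in pCTSH#1 has both groups at background (4.08 and 3.82) and is not read as a change. Of 10 genes of the thioredoxin system, 6 were lower in pcDNA and 7 in pCTSH#1. At 6 h the numbers lower were 2 and 3 for the peroxidases and 6 and 4 for the thioredoxin system, against 24.6% and 21.3% of all genes. Glrx, a glutaredoxin, fell by 1.74 from 6 to 16 h in pcDNA, and in pCTSH#1 from a mean of 9.53 to 8.08. Of 7 genes of NADPH supply, 6 were lower and 1 (Idh2, mitochondrial isocitrate dehydrogenase) was higher in each line at 16 h. Idh1, its cytosolic counterpart, had fallen by 1.26 at 6 h in pcDNA, and in pCTSH#1 from a mean of 10.83 to 9.85. The glutathione transferase Gstm1 fell by 3.03 at 16 h in pcDNA, from 7.22 to 4.20, next to background, and by 2.52 in pCTSH#1.

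The iron exporter gene Slc40a1 fell by 2.28 at 6 h in pcDNA and by 1.58 in pCTSH#1. From 6 to 16 h it rose by 2.02 in pcDNA, and in pCTSH#1 from a mean of 6.21 to 6.95. Among oxidant sources, Nos2, which codes for inducible nitric oxide synthase, was at least 7.83-fold higher at 6 h than at 0 h in pcDNA and at least 5.97-fold in pCTSH#1. From 6 to 16 h it fell by 2.35 in pcDNA, from 7.02 to 4.66 (adjusted p = 1.44e-09, limma). In pCTSH#1 it was also called lower, from a mean of 6.65 to 5.3. Nox1, the catalytic subunit of an NADPH oxidase that makes superoxide, separated the lines at 16 h. It read 4.89 to 5.03 at 0 h and 5.86, 6.34 and 6.48 at 16 h in pcDNA, and 4.88 to 5.26 and 8.51, 8.82 and 8.61 in pCTSH#1. The difference of responses was 2.33 ± 0.25 (adjusted p = 1.05e-04, limma). No other gene of the list of 72 passed that test at 16 h, and Chac1 was the only one to pass it at 6 h.

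Between the lines without cytokines, Ephx1, an epoxide hydrolase, was 0.49 higher and Mafk 0.44 higher in pCTSH#1 than in pcDNA (adjusted p = 0.0311 and 0.0309, limma). The call of Ephx1 ended without any one of the 6 arrays and that of Mafk without any one of 5. At 6 h, 3 of 72 were higher in pCTSH#1 (Nox1 by 1.22, Slc40a1 by 0.92 and Ephx1 by 0.86) and 3 lower (Chac1, Mgst1 and Slc3a2), 8.33% of the 72 against 3.99% of all genes. The call of Mgst1 (-0.34) ended without any one of 5 of the 6 arrays (adjusted p up to 0.0807; all but replicate 1 of pcDNA). At 16 h, Nox1 (2.42), Blvra (0.49) and Glrx (0.43) were higher and Idh2 was lower (-0.36), 5.56% of the 72 against 5.28% of all genes. Leaving out 1 of the 6 arrays ended the call of Glrx in 3 fits (pcDNA replicates 1 and 2, pCTSH#1 replicate 3; adjusted p up to 0.143). It ended that of Idh2 in 2 fits (pcDNA replicate 2, pCTSH#1 replicate 3; adjusted p up to 0.067). Blvra codes for biliverdin reductase, the step after haem oxygenase.

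The genes most like a member over the 7 group means were sought among 4069 genes whose group means spanned at least 1, for the 4 members that spanned as much. For Sod2 they were Ehd4, Stx6 and Gadd45b, each with a Pearson r of 0.999. For Hmox1 they were Shfl, Ppip5k1 and Zmym5, also at 0.999. For Gclm they were Swap70 (0.997), Abhd5 and Slx1b (0.996 each). For Nqo1 they were Susd4 (0.991), Lpgat1 (0.988) and Mdh2 (0.985). These values rest on 7 points that share their arrays, and describe these groups only.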

How the data were processed

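The authors deposited log2 intensities per probe set, made by RMA per the submitters' processing notes, which name affy and limma too and give no versions. Values ran from 2.77 to 13.99 and were used as deposited. Of 31137 probe sets, 95 controls were set aside. Names came from the platform annotation: 19063 probe sets had 1 symbol, 572 several, and 11407 were not listed. Probe sets with several symbols named no gene. Coordinates are RefSeq's (GRCr8).

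The test was limma 3.58.1 (R 4.3.3; lmFit and eBayes at default settings), 1 model of 7 group means over 21 arrays with 13 comparisons, two-sided. The Benjamini-Hochberg adjustment ran over 31042 probe sets within each comparison, at a threshold of 0.05. The fit was also run on simulated arrays with independent noise and changes added to pcDNA at 6 h alone. That setting is simpler than these data, so it does not give their error rates. Values after ± are standard errors. A group was at background where at least 2 of its 3 arrays were. A fold against it is a lower bound from the background level.

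Members, lists and tests were chosen with earlier results of these data known. All members are named, and of the other genes at most 6 per comparison, those with the largest differences called. Names that complete a count of at most 5 were added after their values were seen. So were Sqstm1, Keap1, genes named for calls at background, and values of a named gene in the other line. Equal replicate numbers gave correlations of residuals of -0.0903 to 0.244, all 3 above 0.1 in 2 of 21 pairs of groups, so a replicate block was run as an alternative alone. Further alternatives were array weights, centring on medians, cyclic loess, the mean of a gene's probe sets, a fit restricted to the compared arrays, robust eBayes with a trend, the brighter 50% of probe sets, and each array left out in turn. Plots were drawn with matplotlib 3.10.9.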

Additional observations from a re-analysis of the deposited data

Results flagged for a closer look

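The response of 2 genes of the wider list differed between the lines by the test of the difference itself (limma). For Chac1 at 6 h the response of pCTSH#1 was lower by 2.57 on the log2 scale (-2.57, adjusted p = 4.55e-07), and it passed without any one of the 12 arrays compared. For Nox1 at 16 h the response of pCTSH#1 was higher by 2.33 (adjusted p = 1.05e-04), and it also passed without any one of 12 arrays. No measured member of the antioxidant enzymes was picked out in this way. The cause of either difference was not tested.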

How the results depend on the processing

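The 6 counts of members changed within a line (5 or 6 genes each) stayed within 1.5 times under every alternative run, and leaving out 1 array gave 4 to 6. With the replicate block all 13 counts stayed within that range, and the block changed the calls of Gclc at 6 h in pcDNA (0.24, adjusted p = 0.0481) and Txnrd1 at 16 h in pCTSH#1 (0.20, adjusted p = 0.0569). Between the lines at 6 h, where no member passed, 1 passed among the brighter 50% of probe sets and in the fit on only the arrays compared, and 2 with trend and robust settings, array weights or the mean of all probe sets. At 16 h the single call became 0 in the fit on only the arrays compared, and leaving out 1 array gave 0 to 1. For pCTSH#1 against untransfected cells 1 member, Nqo1, passed among the brighter 50%, with trend and robust settings, array weights and the mean of probe sets, and leaving out 1 array gave 0 to 1. With the mean of all its probe sets, Sod2 fell from 6 to 16 h by 0.53 in pcDNA (-0.53, adjusted p = 5.15e-06, limma) and by 0.24 in pCTSH#1 (-0.24, adjusted p = 0.0121), the reverse of its brighter probe set. The cause was not tested. Gpx1 gave no value among the brighter 50%. The 3 arrays of a group limit the precision of every value, and differences near background are compressed.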
